A study of Mus musculus with 6 samples.

Results

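The transcription factors that build and maintain the monocyte lineage were followed in splenic monocytes, with 1 RNA-seq library from each of 6 mice, 3 of them IL-4Rα+/+ and the rest IL-4Rα-/-. The 9 factors were listed for their known roles, with earlier results of these data known. They are Spi1 (PU.1), Runx1, Cebpa, Irf8, Klf4, Klf2, Cebpb, Cebpd and Zeb2, which makes 9 of the 55421 genes in the deposited tables, and all 9 were among the 13849 genes with enough reads for testing. All mice were of the strain C57BL/6, the labels name no treatment, and genotype is the only difference they give. IL-4Rα-/- mice lack the receptor chain shared by IL-4 and IL-13 in every cell type, so that a difference in monocytes could arise in these cells or around them, and the labels give neither age nor sex. Monocytes were enriched from spleen cells by removing other leukocytes with antibodies and magnetic beads, and polyadenylated RNA was sequenced. The comparison asks whether the regulators of monocyte identity differ in level when the IL-4 receptor is absent.

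Monocytes arise in the bone marrow from progenitors in which PU.1, C/EBPα and RUNX1 open the myeloid programme. IRF8 and KLF4 then direct cells to the monocyte and away from the neutrophil fate. The young monocyte, marked in mice by high Ly6C, can convert to a Ly6C low patrolling monocyte, a step that requires C/EBPβ and the nuclear receptor NR4A1 and in which KLF2, KLF4 and ZEB2 have also been placed. IL-4 acts through STAT6, which binds palindromic sites in its target genes.

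The promoters of 4 factors are shown, because Klf2, Klf4 and Cebpb fell together along the balance of monocyte subsets described further on, and because Zeb2 had the smallest p-value for genotype. Each run covers the 220 bases from 250 to 31 bases before the RefSeq start, read on the strand of the gene on GRCm38.p6, and lies at chr8:72318812-72319031 (plus strand) for Klf2, chr4:55532506-55532725 (minus) for Klf4, chr2:167688665-167688884 (plus) for Cebpb and chr2:45117473-45117692 (minus) for Zeb2. Capitals mark matches on either strand to the searched letters.
Klf2: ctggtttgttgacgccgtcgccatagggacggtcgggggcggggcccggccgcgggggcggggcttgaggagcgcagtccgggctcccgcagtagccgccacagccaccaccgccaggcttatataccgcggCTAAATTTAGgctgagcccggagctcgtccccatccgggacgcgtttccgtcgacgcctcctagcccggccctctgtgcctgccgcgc
Klf4: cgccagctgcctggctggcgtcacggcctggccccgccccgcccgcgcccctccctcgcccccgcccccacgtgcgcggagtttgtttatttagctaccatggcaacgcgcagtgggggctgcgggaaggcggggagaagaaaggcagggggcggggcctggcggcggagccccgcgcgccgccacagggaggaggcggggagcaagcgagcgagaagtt
Cebpb: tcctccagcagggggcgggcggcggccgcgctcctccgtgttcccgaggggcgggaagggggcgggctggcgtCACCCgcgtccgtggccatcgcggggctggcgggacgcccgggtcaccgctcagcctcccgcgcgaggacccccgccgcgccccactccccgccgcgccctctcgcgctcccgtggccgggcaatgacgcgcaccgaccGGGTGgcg
Zeb2: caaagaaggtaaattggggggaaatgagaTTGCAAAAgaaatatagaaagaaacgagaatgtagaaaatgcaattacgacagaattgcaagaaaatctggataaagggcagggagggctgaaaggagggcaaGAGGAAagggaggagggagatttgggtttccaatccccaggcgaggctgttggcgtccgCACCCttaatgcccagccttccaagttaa

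The Klf2, Klf4 and Cebpb windows were rich in G and C, at 71.4%, 74.5% and 81.4%, whereas the Zeb2 window held 46.4%. The Cebpb window had 2 KLF boxes (CACCC), the letters that KLF factors read, which occur in 47.8% of all 32851 promoter windows of this length. The Zeb2 window held 1 match to the C/EBP letters TTGCNNAA (in 8.78% of all windows), 1 to the PU.1 letters GAGGAA (20.4%) and 1 KLF box. The Klf2 window had 1 match to the letters CTANNNNTAG of MEF2 factors (2.83%), which were added after its sequence was seen. No match of any kind lay in the Klf4 window. The STAT6 letters TTCNNNNGAA, found in 5.22% of all windows, were in none of these 4 windows. They were in 1 of the 12 windows that 7 of the 9 factors have between them, at another start of Zeb2, where they overlap a PU.1 match. The RUNX letters TGTGGT (12.7% of all windows) and the CRE letters TGACGTCA (1.14%) were in none of the 4 windows shown. A match of letters is not evidence of binding.

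Each library held 26807281 to 29033297 reads on genes, so that 1 read was 0.0338 to 0.0378 CPM, the count scaled to the size of the library. The rarest measurement among the factors rested on 1110 reads, which leaves a counting error of 3.00% or less, well under the spread between mice. Il4ra was lower in all 3 IL-4Rα-/- libraries (27.9, 79.4 and 31.8 CPM) than in the IL-4Rα+/+ libraries (137, 128 and 177 CPM), a direction in accordance with the labels. IL-4Rα-/- replicate 2 held clearly more Il4ra than the other IL-4Rα-/- libraries. The same library was the highest in the balance of monocyte subsets described further on. The cause of its Il4ra level was not tested. 1 library of each genotype, IL-4Rα+/+ replicate 1 and IL-4Rα-/- replicate 3, carried the female transcript Xist at 553 and 457 CPM, against at most 3.73 CPM in the other 4. Monocyte markers were abundant in every library, with 15607 to 22337 CPM summed over 7 genes in IL-4Rα+/+ and 18491 to 23306 CPM in IL-4Rα-/- mice, and Lyz2 alone reached 8847 to 17025 CPM. Markers of other cells were present at lower levels. Those of red pulp macrophages summed to 2829 to 3399 CPM in IL-4Rα+/+ and 3868 to 6121 CPM in IL-4Rα-/- mice over 10 genes, erythroid genes to 59.8 to 129 and 169 to 426 CPM over 10 genes, and eosinophil, basophil and mast cell genes to 74.9 to 81.4 and 117 to 185 CPM over 9 genes, with no overlap between the genotypes in these 3 lists. In bulk RNA, fewer cells of a type and less RNA per cell cannot be told apart.

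None of the 9 factors differed between the genotypes at the threshold of an adjusted p of 0.15. edgeR called 0 of 13849 genes (0%) and DESeq2 80 of 14003 (0.571%), of which 0 were among the 9. Il4ra itself was not called in edgeR (log2 fold change -1.67 ± 0.41, unadjusted p = 0.00529, adjusted p = 0.618). The lack of a call in edgeR therefore does not show that a level is equal. Without adjustment, 1120 genes (8.09%) had a p under 0.05 in edgeR and 1208 in DESeq2, and again 0 of the 9 in either. The ranges of the 2 genotypes overlapped for all 9 factors, while 2146 of all genes (15.5%) had ranges that did not overlap. The mean was lower in IL-4Rα-/- mice for 7 factors and higher for 2, Cebpa and Cebpd, with a median log2 fold change of -0.10 against 0.01 over all genes. The median size of change, whatever its direction, was 0.18 on the log2 scale for the 9 factors and 0.15 for all genes. No share or median here sets the factors apart from other genes.

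**Figure D1:**
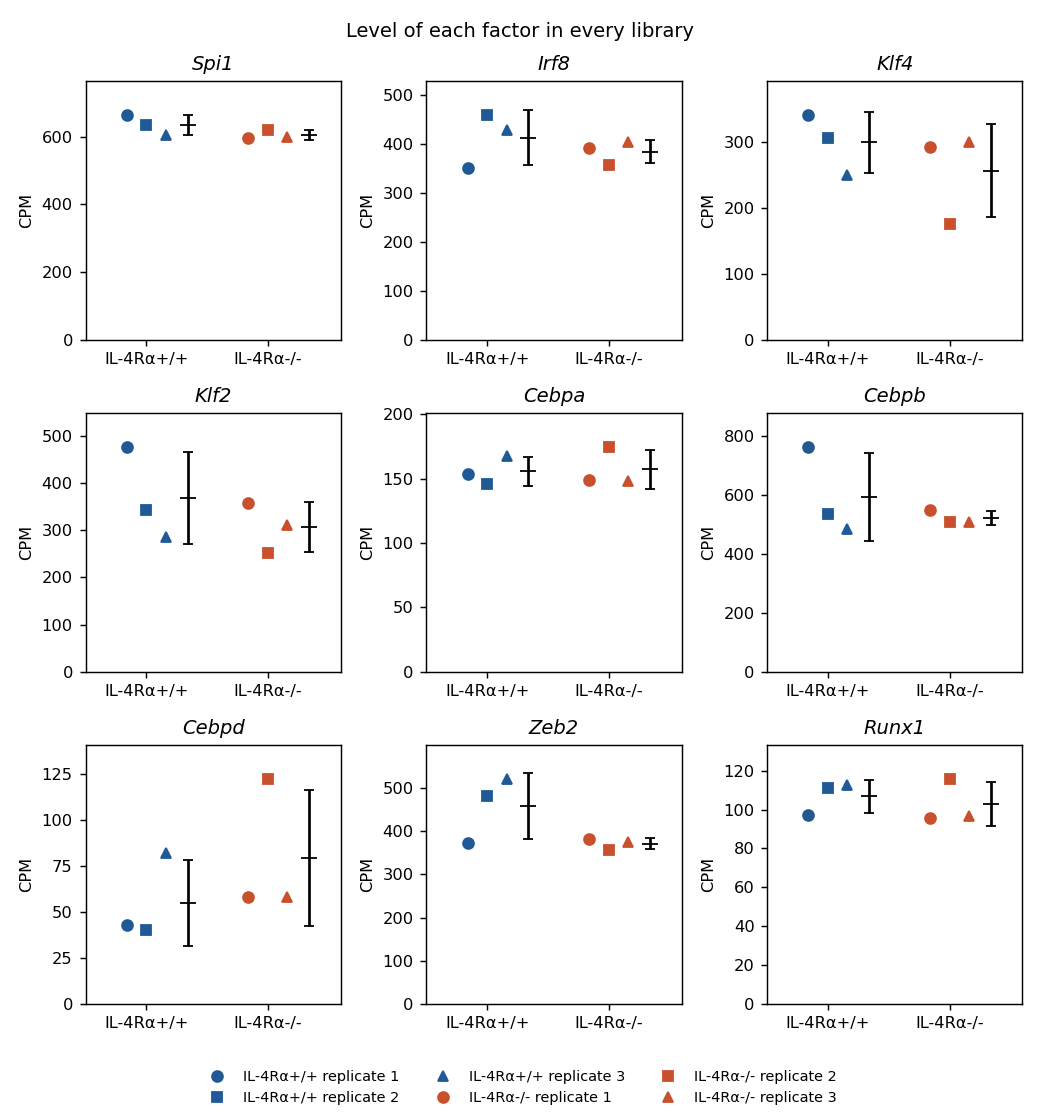
Level of the 9 factors in CPM (vertical axes, starting at 0) in each of the 3 IL-4Rα+/+ (blue) and 3 IL-4Rα-/- (orange) libraries, with the mean and SD of each genotype in black. The 2 genotypes overlap in every panel, from Spi1, whose 6 libraries lie between 597 and 665 CPM, to Cebpd, which spans 40.2 to 122 CPM.

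Among the factors that open the myeloid programme, Spi1, an ETS factor required for all myeloid cells, was the most even of the 9. Its level was 665, 634 and 605 CPM in the IL-4Rα+/+ and 597, 622 and 599 CPM in the IL-4Rα-/- libraries. The highest library exceeded the lowest by 1.11 times, and the coefficient of variation over all 6 was 4.25%. The log2 fold change was -0.07 ± 0.07 (SE), with a 95% interval of -0.24 to 0.10 and an adjusted p of 0.774 in edgeR, so the interval leaves room for a fold between 0.848 and 1.08.

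Cebpa, which starts granulocyte and monocyte development, stood at 154, 146 and 168 CPM in IL-4Rα+/+ and 149, 175 and 148 CPM in IL-4Rα-/- mice. The highest value belonged to an IL-4Rα-/- and the lowest to an IL-4Rα+/+ library, both replicate 2. Its log2 fold change was 0.01 ± 0.10 (interval -0.22 to 0.25, adjusted p = 0.971).

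Runx1, a factor of blood stem and progenitor cells that also acts on the Spi1 and Csf1r genes, was measured at 97.0, 111 and 113 CPM in IL-4Rα+/+ and 95.9, 116 and 96.7 CPM in IL-4Rα-/- mice. Both genotypes held libraries near 96 and near 115 CPM. Its log2 fold change was -0.06 ± 0.11 (interval -0.31 to 0.20, adjusted p = 0.865).

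Of the factors that choose the monocyte over the neutrophil, Irf8 was at 351, 460 and 429 CPM in IL-4Rα+/+ and 392, 358 and 405 CPM in IL-4Rα-/- mice. IL-4Rα+/+ replicate 1 was the lowest of all 6 libraries, below each IL-4Rα-/- value, while the other two IL-4Rα+/+ libraries were the highest. Irf8 had a log2 fold change of -0.10 ± 0.12 (interval -0.38 to 0.18, adjusted p = 0.785).

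Klf4, a zinc finger factor induced downstream of IRF8, was at 342, 308 and 250 CPM in IL-4Rα+/+ and 294, 176 and 301 CPM in IL-4Rα-/- mice. The low value of IL-4Rα-/- replicate 2 stood apart from the other 5, and replicate 3 was the lowest in IL-4Rα+/+. Its log2 fold change was -0.22 ± 0.22 (interval -0.76 to 0.31, adjusted p = 0.766).

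Klf2, its relative and a factor of quiescence in leukocytes and endothelium, followed nearly the same order. It was at 477, 344 and 286 CPM in IL-4Rα+/+ and 358, 252 and 311 CPM in IL-4Rα-/- mice, so that IL-4Rα+/+ replicate 1 was the highest and IL-4Rα-/- replicate 2 the lowest library. Klf2 had a log2 fold change of -0.27 ± 0.21 (interval -0.77 to 0.24, adjusted p = 0.723).

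Cebpb, needed for the survival of Ly6C low monocytes and induced in emergency myelopoiesis, reached 765 CPM in IL-4Rα+/+ replicate 1, and 537 and 484 CPM in the other IL-4Rα+/+ libraries. The IL-4Rα-/- values of 551, 510 and 510 CPM lay within that range. The log2 fold change of -0.18 ± 0.17 (interval -0.60 to 0.23, adjusted p = 0.750) rested on that 1 library, since it was 0.04 without IL-4Rα+/+ replicate 1.

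Cebpd, the C/EBP gene that responds fastest to inflammatory stimuli, was the most variable factor, with a coefficient of variation of 45.7% and a highest value 3.04 times the lowest. It was at 42.8, 40.2 and 81.7 CPM in IL-4Rα+/+ and 58.2, 122 and 57.9 CPM in IL-4Rα-/- mice. The libraries with high values, IL-4Rα+/+ replicate 3 and IL-4Rα-/- replicate 2, were the ones with the least Klf4 and Klf2. The log2 fold change was 0.53 ± 0.39 (interval -0.41 to 1.47, adjusted p = 0.703), which allows a fold between 0.754 and 2.78, and it was 0.94 without IL-4Rα+/+ replicate 3 and 0.08 without IL-4Rα-/- replicate 2.

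Zeb2, a zinc finger repressor that maintains monocyte and macrophage identity, came closest to a difference. It was at 372, 482 and 521 CPM in IL-4Rα+/+ and 382, 357 and 376 CPM in IL-4Rα-/- mice. The IL-4Rα-/- libraries lay close together, and 2 of the 3 IL-4Rα+/+ libraries were above all of them, but IL-4Rα+/+ replicate 1 fell within their range. Its log2 fold change was -0.30 ± 0.13 (interval -0.61 to 0.0086). The unadjusted p was 0.0550 in edgeR and 0.0501 in DESeq2, and the adjusted p 0.618 and 0.619. Over all genes, longer genes had lower fold changes (Spearman's rho -0.234 across 13837 genes, which are not independent), and Zeb2, with 19942 exonic bases, had a log2 fold change of -0.17 once that trend was removed. Zeb2 also shares 658 exonic bases with neighbouring transcripts, mostly on the other strand, and whether counting used the strand is not given in the sources used here.

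**Figure D2:**
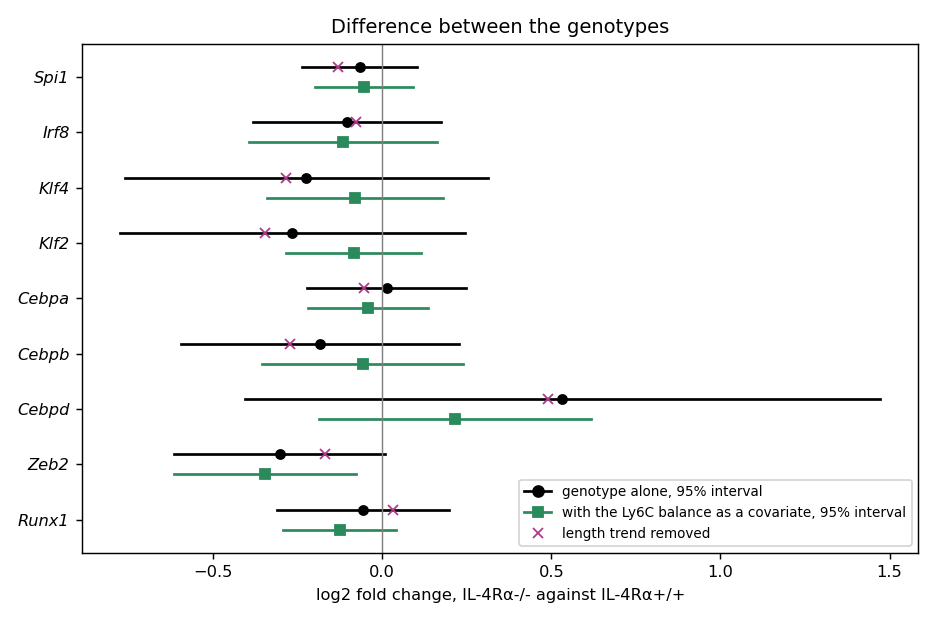
Log2 fold change of each factor, IL-4Rα-/- against IL-4Rα+/+ (horizontal axis), with the genotype alone (black circles), with the Ly6C balance of the libraries added to the model (green squares) and with the trend along gene length removed (crosses), where lines are 95% intervals. All black intervals cross 0, and the green interval of Zeb2, -0.62 to -0.08, is the one that does not.

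Per kilobase of exon, Cebpb transcripts were the most abundant of the 9 in all 6 libraries, at 322 to 508 CPM per kb. Spi1 (221 to 247 CPM per kb) and Klf2 (136 to 258 CPM per kb) held the next places and changed order between libraries, so with this length they did not differ beyond their spread. Klf4 (57.6 to 112 CPM per kb), Cebpa (55.3 to 66.3) and Irf8 (49.8 to 65.2) overlapped each other, as did Cebpd (10.7 to 32.6) and Zeb2 (17.9 to 26.1). Runx1 was lowest in every library, at 7.98 to 9.63 CPM per kb. With the longest transcript of each gene as the length, Irf8 rose to 101 to 133 and Zeb2 to 39.1 to 57.1 CPM per kb, and Runx1 (16.4 to 19.8) overlapped with Cebpd. Spi1 (294 to 327 CPM per kb) was then above Klf2 (136 to 258) in all 6 libraries, so all places but that of Cebpb depend on the length chosen. Cebpa, Cebpb, Cebpd and Runx1 each share 51 to 562 exonic bases with a gene on the opposite strand.

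Ratios between factors that compete or cooperate need no scaling between libraries, and none of the 5 examined differed between the genotypes. Each ratio was taken from values per kilobase of all exons. Its sign and size therefore depend on the length chosen, and only the difference between the genotypes does not. The log2 ratio of Spi1 to Cebpa, which weighs PU.1 against C/EBPα, was 2.00 ± 0.15 (SD, n = 3) in IL-4Rα+/+ and 1.92 ± 0.10 in IL-4Rα-/- mice. The ratio of Irf8 to Cebpa was -0.02 ± 0.24 and -0.13 ± 0.23, that of Irf8 to Klf4 -0.74 ± 0.38 and -0.59 ± 0.35, that of Cebpb to Cebpa 2.72 ± 0.39 and 2.55 ± 0.18, and that of Klf2 to Klf4 1.00 ± 0.18 and 1.01 ± 0.24. The two-sided exact permutation p-values were 0.50 to 1.00 over the 20 labelings, whose smallest possible p is 0.10, and 0.875 to 1.00 after Benjamini-Hochberg adjustment over the 5.

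Within each genotype, the libraries differed in the genes that mark the monocyte subsets. 8 genes of Ly6C high monocytes, among them Ly6c2 and the chemokine receptor gene Ccr2, summed to 2524, 5558 and 12298 CPM in IL-4Rα+/+ and 5247, 13945 and 6037 CPM in IL-4Rα-/- libraries. 8 genes of Ly6C low monocytes, such as Ace and Treml4, ran the other way, at 6868, 5141 and 2657 CPM and 4623, 1967 and 4100 CPM. The difference of the mean log2 levels of the lists, here called the Ly6C balance, was -1.51, 0.19 and 2.61 in IL-4Rα+/+ and 0.31, 3.40 and 0.61 in IL-4Rα-/- mice. High values stand for libraries rich in Ly6C high transcripts, and the genotypes overlapped (mean difference 1.01 log2 units, two-sided exact permutation p = 0.50). All 8 Ly6C high genes had positive and all 8 Ly6C low genes negative log2 fold changes (medians 0.43 and -0.41), 0 of them at an unadjusted p under 0.05 in edgeR. By flow cytometry, the paper counted more Ly6C low monocytes in spleens of IL-4Rα-/- mice and reported no significant difference in Ly6C high monocytes. The Ly6C low genes leaned the other way here, but a number of cells is not a share of transcripts.

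With the balance and the genotype in the same edgeR model, 3148 of 13849 genes (22.7%) had a slope on the balance at an adjusted p under 0.15, and 5 of the 9 factors were among them. 3 factors fell with the balance, against 1623 of all genes (11.7%), and 2 rose, against 1525 (11.0%) of all. None of the 9 is part of the lists that define the balance, but all values come from the same 6 libraries. This relation was examined after the values had been seen.

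Klf2 fell by 0.16 log2 units per unit of the balance (SE 0.03, adjusted p = 0.0148, edgeR), from 477 CPM in the library with the lowest balance to 252 CPM in the one with the highest. Klf4 fell by 0.17 (SE 0.03, adjusted p = 0.0341), from 342 to 176 CPM between the same libraries. Cebpb fell by 0.10 (SE 0.04, adjusted p = 0.143), but the call was lost without IL-4Rα+/+ replicate 1 (slope -0.03, adjusted p = 0.391), IL-4Rα+/+ replicate 3 (-0.08, adjusted p = 0.605) or IL-4Rα-/- replicate 1 (-0.11, adjusted p = 0.251). These are the factors whose promoters are printed above, together with Zeb2.

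Cebpd rose by 0.29 log2 units per unit (SE 0.05, adjusted p = 0.0184), and its highest values were in the libraries with the highest balance, at 81.7 and 122 CPM. Runx1 rose by 0.07 (SE 0.02, adjusted p = 0.107), a call that was lost without any one of 5 libraries, all but IL-4Rα+/+ replicate 2. Spi1 (slope -0.01, interval -0.06 to 0.03), Irf8 (0.02, -0.07 to 0.10), Zeb2 (0.06, -0.03 to 0.14) and Cebpa (0.05, -0.0015 to 0.10, adjusted p = 0.198) did not pass. Cebpa passed after removal of the trend with length (adjusted p = 0.125) or GC content (0.0751) and without IL-4Rα+/+ replicate 1 (0.0863), and Zeb2 after removal of the trend with length (0.125).

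**Figure D3:**
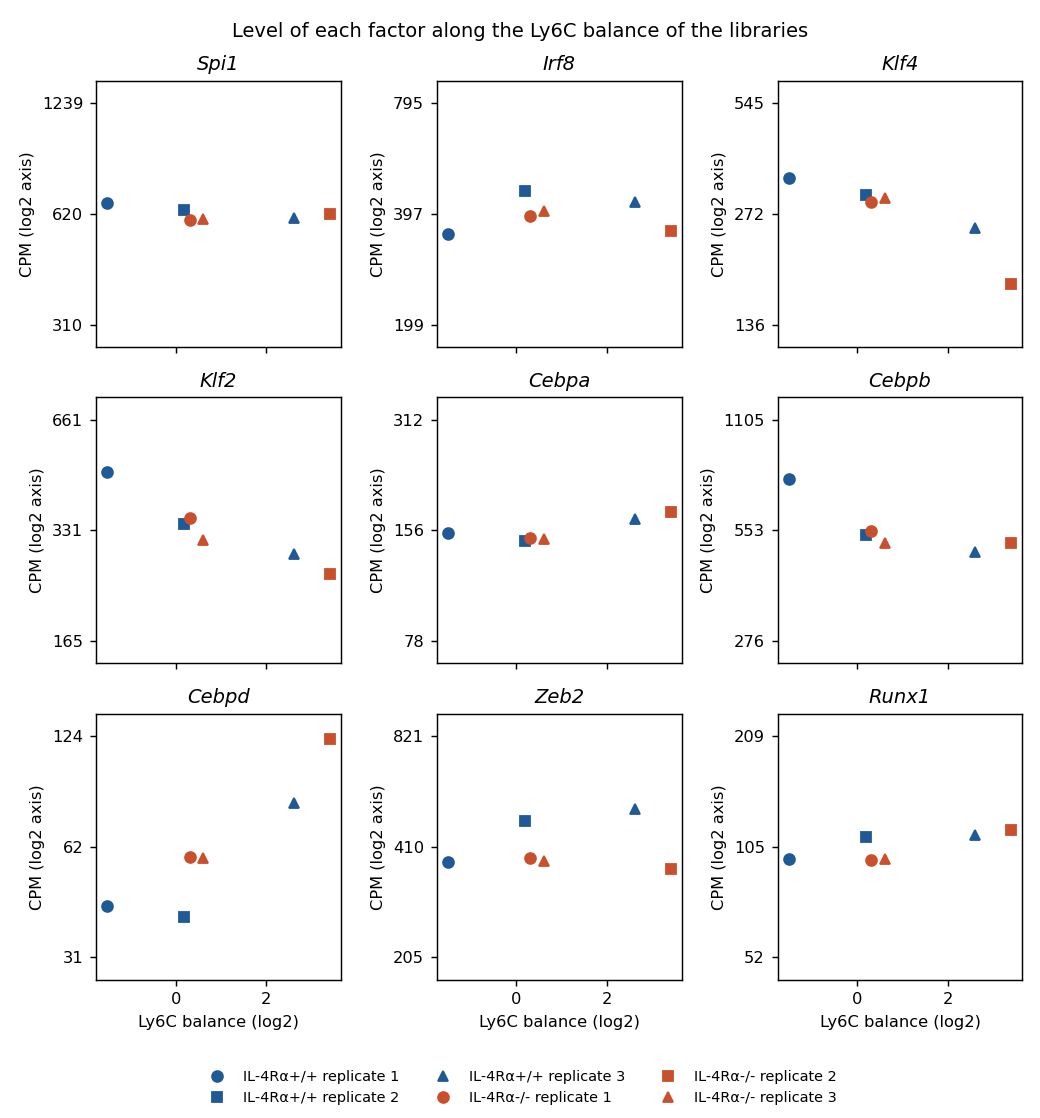
Level of the 9 factors in CPM (vertical axes, log2 scale, each spanning the same fold) against the Ly6C balance of the 6 libraries (horizontal axes, log2 units), by genotype and replicate. Klf4 and Klf2 descend from left to right and Cebpd climbs, while Spi1 stays within 597 to 665 CPM over the whole range.

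Across the 6 libraries the correlation with the balance, given for all 9 relations computed, was strongest for Klf2 (Pearson's r -0.95, exact permutation p = 0.00556; Spearman's rho -0.94, p = 0.0167). It was -0.92 for Klf4 (exact p = 0.00833; rho -0.94, p = 0.0167), 0.92 for Cebpd (exact p = 0.0167; rho 0.89, p = 0.0333) and -0.79 for Cebpb (exact p = 0.0444; rho -0.77, p = 0.103). The exact permutation p for the other 5 factors was between 0.106 and 0.867 for r. IL-4Rα+/+ replicate 3 and IL-4Rα-/- replicate 2 were the 2 libraries farthest from the median balance. Without them, r over the remaining 4 was -0.98 for Klf2, -0.96 for Klf4, -0.99 for Cebpb and 0.57 for Cebpd, which was lower than with all 6. For Cebpa, r was 0.80 with all 6 and -0.86 with these 4. Of the 4, IL-4Rα+/+ replicate 1 had a balance of -1.51 and the others 0.19 to 0.61. Each r over the 4 thus depended largely on that 1 library, and cannot show how a relation holds without an extreme library. In the model without IL-4Rα+/+ replicate 1, the slope of Cebpb was -0.03.

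Leaving out single libraries changed how many slopes passed. Klf4 passed without any of the 6 in turn, and Klf2 and Cebpd in 5 of 6, with adjusted p-values of 0.152 and 0.187 without IL-4Rα+/+ replicate 3. Without that library 1 factor passed of 9 and 704 genes (4.95%) in all, and without IL-4Rα-/- replicate 1 it was 3 factors and 1667 genes (11.7%). Without IL-4Rα-/- replicate 2, 4 factors and 1159 genes (8.15%) passed. It was 4 factors and 2389 genes (16.9%) without IL-4Rα-/- replicate 3, and 4 factors and 2928 genes (20.65%) without IL-4Rα+/+ replicate 1. Without IL-4Rα+/+ replicate 2, 5 factors and 3251 genes (23.0%) passed.

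**Figure D4:**
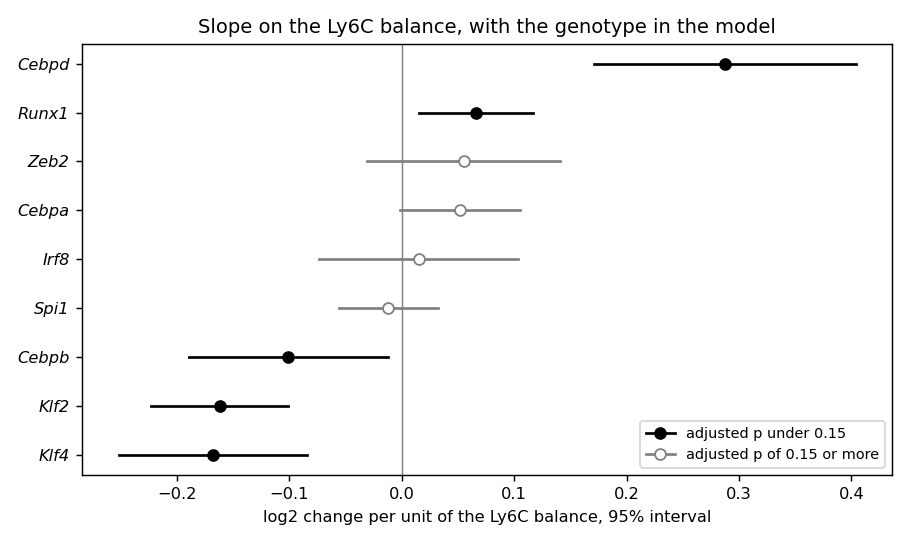
Slope of each factor on the Ly6C balance, in log2 units per unit of balance (horizontal axis), with 95% intervals, from the model that also holds the genotype. Filled black points are the 5 factors with an adjusted p under 0.15, of which Klf4, Klf2 and Cebpb lie left of 0 and Cebpd and Runx1 right of it.

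Of 12 neutrophil genes, 2 rose with the balance, Mmp8 and Prtn3. By genotype, 11 of the 12 had positive log2 fold changes in IL-4Rα-/- mice (median 1.17 over the list), 0 of them at an adjusted p under 0.15 in edgeR. 5 had an unadjusted p under 0.05 in edgeR, Cxcr2, Camp, S100a9, S100a8 and Ngp. DESeq2 called 1, Camp (adjusted p = 0.123). The neutrophil genes summed to 81.3, 64.1 and 277 CPM in IL-4Rα+/+ and 237, 681 and 134 CPM in IL-4Rα-/- libraries over 12 of 13 genes, with the highest sums in the libraries of highest balance. Mmp8 alone made up 171 CPM of the sum in IL-4Rα+/+ replicate 3 and 305 CPM of that in IL-4Rα-/- replicate 2. S100a8, S100a9, Camp, Ngp and Ltf were higher in IL-4Rα-/- replicate 1 than in IL-4Rα+/+ replicate 3, whereas Mmp8 and Prtn3 were lower. S100a8 and S100a9 were themselves highest in IL-4Rα-/- replicate 2, the library of highest balance, at 91.3 and 75.6 CPM. Ly6g, the defining neutrophil marker, was too low for testing. Of 9 pancreatic enzyme genes 0 had a slope. They were highest in IL-4Rα-/- replicate 2, at 284 CPM in sum, followed by 31.2 CPM in IL-4Rα+/+ replicate 1, the library with the lowest balance. Of 17 immediate early and heat shock genes, which respond to handling of cells, 7 rose with the balance, Atf3, Fosb, Zfp36, Junb, Fos, Ier3 and Egr1, and 2 fell, Nfkbia and Nr4a1. The part of these transcripts in the slopes of Klf2, Klf4, Cebpb, Cebpd and Runx1 was not tested.

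With the balance held in the model, none of the 9 factors differed between the genotypes after adjustment. Zeb2 was lower by 0.35 ± 0.11 log2 units (interval -0.62 to -0.08) in IL-4Rα-/- mice, with an unadjusted p of 0.0197 and an adjusted p of 0.382 over all genes in edgeR. The fold changes of Klf2 and Klf4 came to -0.08 each, that of Cebpb to -0.06, that of Cebpd to 0.22 and that of Spi1 to -0.05, which were closer to 0 than without the balance. Those of Runx1 (-0.13), Irf8 (-0.12), Cebpa (-0.04) and Zeb2 were farther from 0.

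Relatives of the 9 factors in the same families gave a similar picture for the genotype, with 0 adjusted calls. The Irf list held 7 genes, of which 1, Irf1, had an unadjusted p under 0.05, with 292, 269 and 268 CPM in IL-4Rα+/+ and 250, 245 and 238 CPM in IL-4Rα-/- mice. Irf1, an interferon-induced factor, had no overlap between the genotypes and a log2 fold change of -0.18 ± 0.07 (adjusted p = 0.618). Of 8 further Klf genes, 1 had a p under 0.05, Klf3, a repressor of its family (381, 293 and 285 against 264, 242 and 247 CPM, log2 fold change -0.35 ± 0.13, adjusted p = 0.618). Of 9 further ETS genes it was Elf4, a brake on lymphocyte proliferation (391, 353 and 306 against 298, 243 and 295 CPM, -0.33 ± 0.12, adjusted p = 0.618). Among 3 further C/EBP genes and 5 genes of the RUNX, CBF and ZEB families none had a p under 0.05. Their median log2 fold changes were -0.08 and -0.29.

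Along the balance, Cebpg and Ddit3 of the C/EBP family fell, as did Klf9 and Klf16, the ETS genes Spib, Ets1, Ets2 and Elf4, and Runx2, Zeb1 and Cbfa2t3, whereas Irf9 and Runx3 rose. Ets1, a lymphocyte factor, had a slope of -0.43 ± 0.03 (adjusted p = 0.00153) and Runx3 one of 0.14 ± 0.02 (adjusted p = 0.0118). The other 1 C/EBP, 6 Irf, 6 Klf, 5 ETS and 1 RUNX, CBF or ZEB genes did not pass.

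The list of 23 other myeloid regulators held 0 adjusted calls for genotype. Batf3, a dendritic cell factor, and Rel, a subunit of NF-κB, were lower in IL-4Rα-/- mice, with log2 fold changes of -0.45 ± 0.16 and -0.53 ± 0.21. Maf, a factor of macrophage differentiation, was higher, with 0.46 ± 0.19. Each of these had an unadjusted p under 0.05 and an adjusted p of 0.618 in edgeR. Maf was highest in IL-4Rα-/- replicate 1 (218 CPM), the library with the highest sum of red pulp macrophage genes (6121 CPM), and the part of such cells in its level was not tested.

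12 of these 23 regulators had a slope on the balance, 8 of them downward and 4 upward. Nr4a1, required for Ly6C low monocytes, stood at 1439, 1209 and 828 CPM in IL-4Rα+/+ and 1024, 539 and 1116 CPM in IL-4Rα-/- libraries and had a slope of -0.25 ± 0.04 (adjusted p = 0.0119). The 6 libraries stood in the same order for Nr4a1 and Klf4. Nr4a3, Bhlhe40, Pou2f2, Bcl6, Batf3, Rel and Myb fell as well, while Egr1, Batf, Nfil3 and Tcf4 rose.

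Genes known as targets of the 9 factors were counted in 6 lists. No target had an adjusted p under 0.15 between the genotypes in edgeR, and 1 had a p under 0.05, Cdh1. The study had already reported Cdh1 as higher in IL-4Rα-/- monocytes from these same libraries. As the lists were chosen with earlier results known, its place here is not an independent result. Cdh1 encodes E-cadherin, which ZEB2 represses in epithelial cells, and was at 1.55, 1.38 and 1.51 CPM in IL-4Rα+/+ and 3.71, 3.54 and 2.77 CPM in IL-4Rα-/- mice, on 38 to 104 reads. All 3 IL-4Rα-/- values exceeded all IL-4Rα+/+ values, with a log2 fold change of 1.18 ± 0.22 (adjusted p = 0.618 in edgeR and 0.0205 in DESeq2). The other members of the ZEB2 list, Id2 and Nr1h3, had log2 fold changes of 0.24 ± 0.13 and 0.35 ± 0.21 (adjusted p = 0.640 and 0.656). The list does not state whether ZEB2 raises or lowers a gene, so the shared direction was not read as an effect of Zeb2. Nr1h3 was highest in IL-4Rα-/- replicate 1 (149 CPM), the library with the highest sum of red pulp macrophage genes (6121 CPM). The part of such cells in its level was not tested.

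The PU.1 list had 11 tested genes and a median log2 fold change of -0.01, and the RUNX1 list 5 genes and -0.07. Both lists hold Csf1r, the receptor for M-CSF, which was at 3095, 2811 and 2425 CPM in IL-4Rα+/+ and 2839, 2227 and 2398 CPM in IL-4Rα-/- mice (-0.16 ± 0.13, adjusted p = 0.729). The median was -0.11 over 8 targets of IRF8 and -0.05 over 5 of KLF2 and KLF4. It was 0.34 over 12 targets of C/EBP factors, with higher means in IL-4Rα-/- mice for 9 and lower for 3, none at a p under 0.05, and several of these, such as Mpo and Hp, are also in the neutrophil or Ly6C high lists.

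Along the balance, 5 of the 8 IRF8 targets fell, Cst3, Klf4, Il12b, Cxcl16 and Nf1, and 1, Ctsc, rose. Of the KLF2 and KLF4 targets, Thbd, the anticoagulant thrombomodulin, fell (-0.24 ± 0.05, adjusted p = 0.0463). 3 of 12 C/EBP targets rose, Csf3r, Saa3 and Hp, of which Hp is also in the balance, and 1, Nr4a1, fell. Among PU.1 targets 3 rose and 2 fell, among RUNX1 targets 2 fell, and of the ZEB2 targets Nr1h3 fell.

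Among 8600 genes with a mean of at least 10 CPM, those most like each factor over the 6 libraries were Bop1 and Dok3 for Spi1 (Pearson's r 0.99 and 0.98), Exoc4 and Senp7 for Irf8 (0.99 and 0.98), Lpin1 and Mtss1 for Klf4 (1.00 and 0.99), Loxl3 and Arhgap25 for Klf2 (0.99 each) and Phc2 and Sars2 for Cebpa (1.00 and 0.99). They were Clip2 and Exosc1 for Cebpb (1.00 and 0.99), Atp5f1 and Slc35f5 for Cebpd (1.00 each), Kdm4c and Ice1 for Zeb2 (0.99 each) and Wipf1 and Zfp971 for Runx1 (0.98 each). With 6 points per gene, many genes reach such values, and the coefficients describe these libraries only.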

How the data were processed

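Splenic monocytes of 6 mice were profiled, 3 per genotype. With STAR 2.6.1a, reads of 75 bp (single-end) were mapped to GRCm38, and the authors deposited raw counts per gene, without normalization. Reads not assigned to 1 gene (21.1% to 22.8% of each library) were left out. Libraries were grouped by the genotype in the labels. The study describes the controls as littermates, but no label ties a library to a litter or batch.

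Genes were filtered with filterByExpr (minimum count 10), scaled by TMM and compared in edgeR 4.0.16 (R 4.3.3) by its quasi-likelihood test, the p-values being adjusted (Benjamini-Hochberg) over all 13849 genes and the study's threshold of 0.15. DESeq2 1.42.0 was the alternative tool. Standard errors and 95% intervals came from the edgeR fit. Single values were compared by exact permutation over 20 labelings. Log2 CPM used a prior count of 2. Symbols and exon lengths came from a Gencode release near the authors' (55240 of 55421 identifiers matched), and promoters from RefSeq, which held windows for 7 of the 9 factors.

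Alternatives changed the scaling, filter, tool, threshold and replicate block, removed trends with length or GC content (loess, span 0.5), or left out 1 library. The Ly6C balance and its slopes were added after the data were seen. The steps were tested on simulated data. Genes were named if they were 1 of the 9 factors or Il4ra, had an unadjusted p under 0.05 in a list (at most 5 per list), or were the 2 most correlated with a factor. Markers, relatives and targets that illustrate a list or passed along the balance were named after their values were seen. The factors and lists were chosen with earlier results of these data known. Some genes that met these rules are not reported here.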

Additional observations from a re-analysis of the deposited data

How the results depend on the processing

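In every alternative tried, 0 of the 9 factors passed the adjusted threshold for genotype. Zeb2 was lower in IL-4Rα-/- mice in all 18 alternatives, with log2 fold changes from -0.43 to -0.15. Spi1, Irf8, Klf4 and Klf2 were likewise lower, and Cebpd higher, in all 18. The alternatives reuse the same 6 libraries, so a constant direction adds no independent evidence. DESeq2 called 80 genes where edgeR called 0. Cebpa, whose fold change was 0.014, turned to -0.054 with the length trend removed, -0.013 with the GC trend removed, -0.018 scaled on monocyte genes and -0.042 with the Ly6C balance as a covariate, and ranged from -0.069 to 0.071 when single libraries were left out. Runx1 turned to 0.032 with the length trend removed, and Cebpb ranged from -0.31 to 0.036, the latter without IL-4Rα+/+ replicate 1. The number of factors whose genotypes did not overlap was 0 to 3 with 1 library left out, the 3 being Spi1, Klf4 and Cebpd without IL-4Rα+/+ replicate 3, where 36.9% of all genes did not overlap. It was 2 without IL-4Rα+/+ replicate 1 (24.3% of all genes) or IL-4Rα-/- replicate 2 (23.7%), 1 with the length trend removed (Spi1, 13.02%) and 1 when scaled on monocyte genes (Zeb2, 11.9%). With 1 library left out, the difference in log2 ratio ranged from -0.21 to 0.022 for Irf8/Cebpa, from -0.056 to 0.31 for Irf8/Klf4, from -0.36 to 0.033 for Cebpb/Cebpa and from -0.11 to 0.13 for Klf2/Klf4. The causes were not tested.

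Same-numbered libraries deviated together in pair 1 (correlation 0.19) but not in pairs 2 and 3 (-0.32 and -0.34), so the numbers were not taken as pairs. With a replicate block, 0 genes and 0 factors passed and 765 genes had an unadjusted p under 0.05. With the block and the length trend removed, Cebpa was at -0.056, Runx1 at 0.025 and 1 factor, Spi1, did not overlap, against 13.02% of all genes. With the block and the GC trend removed, Cebpa was at -0.019.

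With 1 library left out, 1 to 5 factors passed along the Ly6C balance, while 4.95% to 23.0% of all genes did. Slopes then ranged from -0.032 to 0.0072 for Spi1, from -0.048 to 0.063 for Irf8 and from -0.0037 to 0.11 for Zeb2. With the GC trend removed, Spi1 turned to 0.0094 and Cebpb was at -0.059 (adjusted p = 0.387). With no genotype term, Runx1 was at 0.053 (adjusted p = 0.212). With 3 mice per genotype, differences within the intervals given cannot be told from 0.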
